A study of Drosophila melanogaster with 4 samples.

Results

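The gene *hth* (*homothorax*, Dmel_CG17117) lies on chromosome arm 3R and carried one of the densest runs of Abrupt (Ab) peaks of that arm in eye/antennal discs. Its peaks were all those of both deposited lists that touch the dm3 window in which the study drew the gene, 3R 6323785 to 6476003 (152 kb). They were 83 peaks of 19773 in all, 40 of 8881 in the list of *ab* discs and 43 of 10892 in the list of *scrib-*+*ab* discs. The gene was chosen by its number of peaks in these same lists, so that number and the density of its peaks are given as a description, with no test. Eye/antennal discs are the larval epithelia from which the adult eye, antenna and head capsule form. Both genotypes were mosaics in which clones, made by the MARCM system with *ey-FLP1* and an *FRT82B* chromosome, expressed *UAS-ab* under *Tub-GAL4* and were marked with *UAS-mCD8-GFP*. In *ab* discs the clones were otherwise wild type, and in *scrib-*+*ab* discs they were also homozygous for *scrib1*. Whole discs were used, so clonal and surrounding tissue were both in the chromatin. Discs were fixed in 1.8% formaldehyde, chromatin was sheared to about 500 bp, and Ab was pulled down with a rabbit polyclonal antibody. About 100 discs went into each immunoprecipitation and 3 to 6 immunoprecipitations were pooled. With 1 pull-down library per genotype there is no replicate error, no test between the genotypes, and a difference between the lists is a difference between these libraries.

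Hth is a homeodomain protein of the TALE class and the fly counterpart of vertebrate Meis proteins. It binds Extradenticle (Exd), brings it into the nucleus and binds DNA with it. In the eye disc Hth marks the undifferentiated progenitors ahead of the differentiating retina, and in the antennal disc it is needed for antennal rather than leg identity and for proximal fates. Some *hth* transcripts end early and encode a protein with the Exd-binding part but without the homeodomain. Ab is a BTB-zinc finger transcription factor. *scrib*, which encodes an apico-basal polarity protein, lies on the same chromosome arm.

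*hth* is transcribed from right to left on the dm3 map. The window shows 8 transcripts, with 4 start sites, called P1 to P4 here in the direction of transcription. P1 (near 3R 6464597) starts 1 transcript, P2 (near 6440008) starts 4, P3 (near 6431390) starts 2 and P4 (near 6388171) starts 1. Of the 8 transcripts, 6 run to a common end near 6335700, and 2, 1 from P1 and 1 from P2, end early. The models cover 129 kb, with 15 separate exon blocks and 14 stretches between them. These positions were read from a drawing at 127 bp per pixel, so an exon edge is known to about 127 bp.

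Most peaks lay in introns, as does most of the window: 80.8% of it, and 95.4% of the span of the gene models, is intron in at least 1 transcript. In *ab*, 37 of 40 peaks touched an intron and the other 3 lay upstream of P1, and in *scrib-*+*ab*, 42 of 43 touched an intron and the other 1 lay upstream of P1. No peak lay only in an exon by this count. The *scrib-*+*ab* peak at 6439766 to 6439850 lay within the first exon of the transcripts from P2. It counts as intronic only through the transcript from P1. The 3 upstream *ab* peaks were 185, 223 and 39 bp long and the upstream *scrib-*+*ab* peak was 34 bp, and none of the 4 overlapped a peak of the other list.

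**Figure D1:**
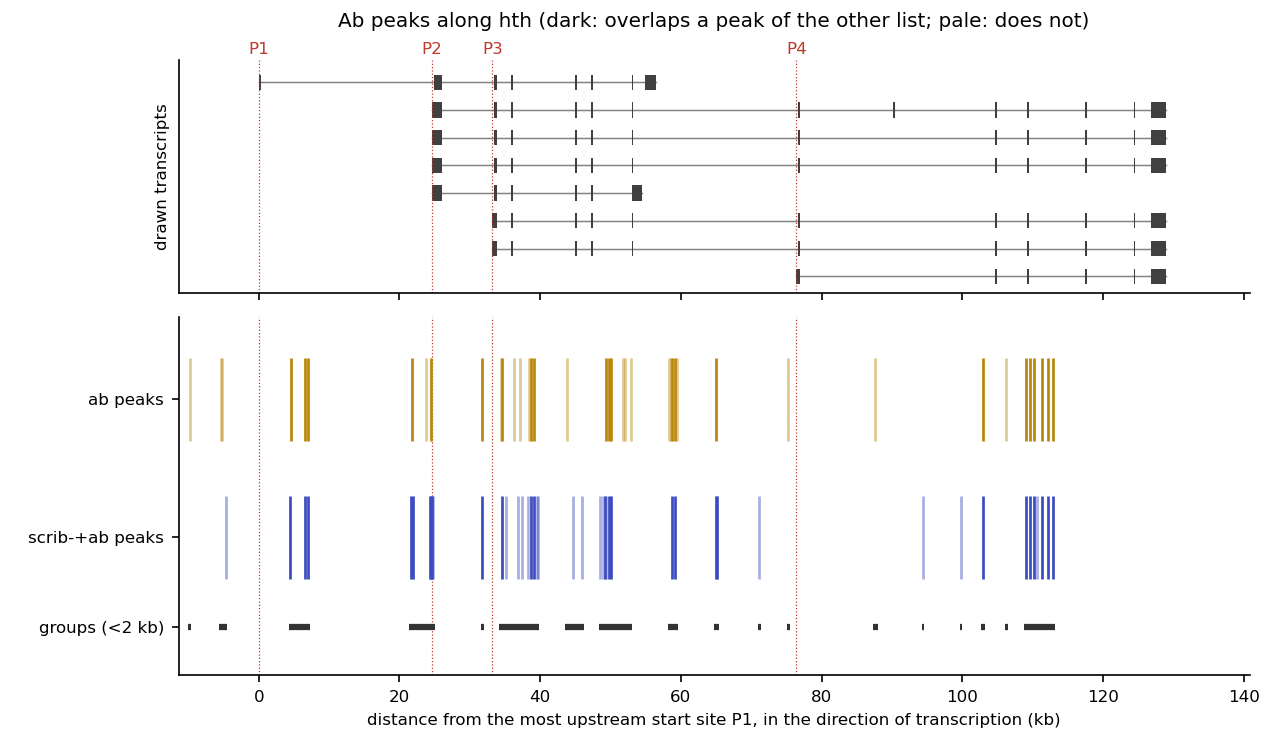
The 8 drawn *hth* transcripts (top) and the 40 *ab* and 43 *scrib-*+*ab* peaks (bottom, each line at a peak's midpoint) against distance from P1 in kb, with dotted lines at the 4 start sites and dark bars for the 18 groups of peaks less than 2 kb apart. Peaks crowd between P2 and the early transcript ends and again near 110 kb, and none lies beyond 113 kb.

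P2, the start site with the most transcripts, was the only one of the 4 with a peak in its promoter region, taken as the start site and the 500 bp upstream. In *ab* this was a single peak of 445 bp at 3R 6439951 to 6440395, which spans P2 as drawn. It passes P2 by less than 1 pixel, so the drawing does not settle whether it spans the start site itself. In *scrib-*+*ab* the same stretch held 3 peaks, of 91 bp at 6439977 to 6440067, 82 bp at 6440139 to 6440220 and 122 bp at 6440265 to 6440386. All 3 fall within the *ab* peak, so a single interval in one list is split into 3 in the other. A further *scrib-*+*ab* peak of 85 bp began 158 bp downstream of P2, at 6439766 to 6439850, and had no *ab* peak over it. The longest *hth* peak was close by: in *ab*, 565 bp at 6442565 to 6443129, some 2557 bp upstream of P2 and within the first intron of the transcript from P1. It met 2 *scrib-*+*ab* peaks, of 317 bp at 6442779 to 6443095, the longest *hth* peak of that list, and of 105 bp at 6442562 to 6442666.

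The other start sites, as drawn, had no peak within 1 kb in either list, though an *ab* peak at P4 lay within 1 pixel of that limit. The nearest peak to P1 was 4406 bp away in *ab* and 4446 bp away in *scrib-*+*ab*, downstream in both, and these peaks overlap. The nearest to P3 was 1144 bp downstream in *ab* and 1379 bp downstream in *scrib-*+*ab*. At P4 the lists differed: an *ab* peak of 140 bp at 6389265 to 6389404 lay 1094 bp upstream, whereas the nearest *scrib-*+*ab* peak lay 5264 bp upstream.

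Along the gene the peaks were unevenly spread. The stretches compared here were laid out after the peaks had been seen. Between P1 and P2 (24.6 kb) there were 6 *ab* and 8 *scrib-*+*ab* peaks. From P2 to the ends of the early-ending transcripts (31.8 kb, 20.9% of the window) there were 15 *ab* peaks, or 0.472 per kb, and 19 *scrib-*+*ab* peaks, or 0.597 per kb, the largest number of the 7 stretches in both lists. From there to P4 (20.0 kb) there were 7 and 5 peaks. The 28.3 kb from P4 to the 11th exon block held 2 *ab* and 3 *scrib-*+*ab* peaks, or 0.0708 and 0.106 per kb, which is close to the mean density of arm 3R given further on. The next 12.8 kb, to the 13th block, held 7 peaks in each list, or 0.547 per kb. In the last 23.3 kb of the window, with the final 3 exon blocks, neither list had a peak. The first peak from that side began at 6351645, 15.9 kb inside the gene from its common transcript end.

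The density of *hth* peaks was set beside that of its arm, taken from the first to the last peak of 3R (27.9 Mb). In *ab*, *hth* had 0.263 peaks per kb (exact Poisson 95% interval 0.188 to 0.358, counting error only), or 1 peak in 3.81 kb, while the arm had 0.0721 per kb, or 1 in 13.9 kb. In *scrib-*+*ab*, *hth* had 0.282 peaks per kb (0.204 to 0.381) and the arm 0.0984. The ratio to the arm was 3.64 in *ab* (2.6 to 4.96) and 2.87 in *scrib-*+*ab* (2.08 to 3.87). The window is 0.546% of the arm's length and held 1.99% of its *ab* peaks (exact binomial interval 1.42 to 2.70%) and 1.57% of its *scrib-*+*ab* peaks (1.14 to 2.10%). The intervals cover counting error of each list alone and are no test between the genotypes. They count peaks as independent, which neighbouring pieces of a region are not. The gene was also chosen by its number of peaks, so they are no test of *hth* against its arm. By base pairs covered, *hth* had 49.2 bp per kb in *ab* against 14.4 for the arm, and 24.8 against 9.06 in *scrib-*+*ab*.

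Windows of the same width laid end to end along 3R give the background, with 181 windows beside that of *hth*. They were laid outward from the *hth* window, so *hth* is whole in its window while other dense runs can be cut by a border. Their median was 8 *ab* and 12 *scrib-*+*ab* peaks, and 8 and 6 of them had no peak. Of the 181 windows, 2 (1.1%) had at least the 40 *ab* peaks of *hth*, and 5 (2.76%) had at least its 43 *scrib-*+*ab* peaks. The highest counts were 42 and 61. The gene was chosen with these counts known, so its place among the windows is a description.

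**Figure D2:**
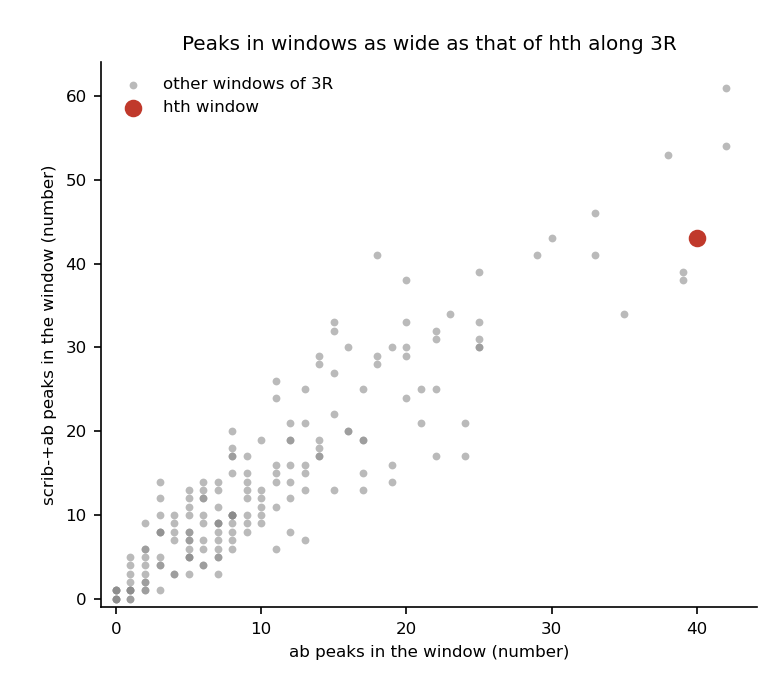
Number of *ab* peaks (x axis) and *scrib-*+*ab* peaks (y axis) in each of 182 windows as wide as that of *hth*, laid end to end along 3R. The *hth* window (red, 40 and 43) lies among the densest windows, with 2 others at or above it on the x axis and 5 on the y axis.

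Of the 13 other genes that the study drew in a window of at least 50 kb, 2 had more *ab* peaks per kb than *hth* and 5 had more *scrib-*+*ab* peaks per kb. The 3 most like it, by distance in log2 peaks per kb over both lists, were *Eip75B* (0.239 *ab* and 0.290 *scrib-*+*ab* peaks per kb, distance 0.14), *ftz-f1* (0.284 and 0.322, distance 0.22) and *lola* (0.246 and 0.353, distance 0.34). *Eip75B* and *ftz-f1* encode nuclear receptors and *lola* encodes BTB-zinc finger proteins. The likeness rests on these 2 libraries and on windows of different width, from 52.7 kb for *ftz-f1* to 152 kb for *hth*.

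Of the *ab* peaks of *hth*, 22 of 40 (55%, exact binomial 95% interval 38.5 to 70.7%) shared at least 1 bp with a *scrib-*+*ab* peak. Over the whole *ab* list the share was 59.1% and over 3R 62.4%. Of the *scrib-*+*ab* peaks, 26 of 43 (60.5%, 44.4 to 75%) shared at least 1 bp with an *ab* peak, against 58.2% over the whole list and 55.8% over 3R. Both *hth* shares lay near their background, which falls inside their intervals. The intervals count peaks as independent, which neighbouring pieces of a region are not, and no test was run. The 22 *ab* peaks and 26 *scrib-*+*ab* peaks met as 22 best-matched pairs, because 3 *ab* peaks met more than 1 *scrib-*+*ab* peak: the 445 bp peak at P2 met 3, the 565 bp peak upstream of it met 2, and a 304 bp peak at 6399417 to 6399720 met 2. No *scrib-*+*ab* peak met more than 1 *ab* peak.

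Spaces between neighbouring peaks were shorter at *hth* than over the arm, which goes with the density by which the gene was chosen. Within *ab*, 25 of the 39 spaces between neighbouring peaks (64.1%) were under 2 kb, against 51.7% over 3R, with a median of 775 bp against 1681 bp. Within *scrib-*+*ab*, 27 of 42 (64.3%) were under 2 kb, against 57.8%, with a median of 519 bp against 992 bp. The smallest spaces were 42 and 44 bp. PeakSeq, which called the peaks, was set to join stretches up to 40 bp apart. The widest space was 15.0 kb in *ab*, at 6361764 to 6376800, and 23.2 kb in *scrib-*+*ab*, at 6370219 to 6393435. Both lie in the thinly covered part around and beyond P4. With both lists together the widest space between peaks was elsewhere, 14.3 kb at 6443129 to 6457454, between P1 and P2.

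With both lists together and neighbours less than 2 kb apart placed in one group, there were 18 groups. Peaks of both lists were in 11 of them, *ab* peaks alone in 4 and *scrib-*+*ab* peaks alone in 3, and these 7 single-list groups were 1 peak each. The group with the most peaks ran for 5.39 kb just downstream of P3, at 6424862 to 6430246, with 7 *ab* and 9 *scrib-*+*ab* peaks, of which 3 in each list were shared. Within 500 bp of a peak of the other list were 6 of these 7 *ab* and 8 of these 9 *scrib-*+*ab* peaks. Its leading peak was shared, with 409 bp in *ab* at 6425646 to 6426054 and 151 bp in *scrib-*+*ab* at 6425882 to 6426032.

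Nearly all peaks were shared in the group nearest the 3′ side. It ran for 4.04 kb at 6351645 to 6355680 and held 6 *ab* peaks, all shared, and 7 *scrib-*+*ab* peaks, 6 of them shared. Its *ab* peaks were 79 to 343 bp long. Its longest *scrib-*+*ab* peak, 221 bp at 6354248 to 6354468, lay within an *ab* peak of 303 bp at 6354205 to 6354507. Another group, with 6 peaks from each list, lay at 6411696 to 6416088, where 3 peaks of each list were shared. There a pair at 6414352 had the same first base in both lists and ended at 6414594 in *ab* (243 bp) and 6414597 in *scrib-*+*ab* (246 bp). The 3 *ab* peaks at the 3′ side of this group, of 240, 217 and 90 bp, lay 1451 to 2566 bp from the nearest *scrib-*+*ab* peak.

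The remaining groups with peaks of both lists were smaller. In the first intron of the transcript from P1, a group of 2.74 kb at 6457454 to 6460191 held 3 peaks of each list, all shared, with *ab* lengths of 189, 228 and 215 bp and *scrib-*+*ab* lengths of 107, 199 and 39 bp. Its 39 bp peak lay wholly within the 215 bp *ab* peak, the pair with the most unequal lengths. The group at P2 ran for 3.36 kb at 6439766 to 6443129 and held 3 *ab* and 6 *scrib-*+*ab* peaks. Single shared pairs stood alone at 6432799 to 6432911 (113 bp in *ab*, 49 bp in *scrib-*+*ab*) and at 6361559 to 6361764 (188 and 108 bp). In the long intron beyond the early transcript ends, a group at 6405125 to 6406347 had 5 *ab* and 2 *scrib-*+*ab* peaks, with 2 shared in each. It was the only group of 5 or more peaks in which *ab* peaks outnumbered the *scrib-*+*ab* peaks. The same intron held the 304 bp *ab* peak over 2 *scrib-*+*ab* peaks of 98 and 58 bp. Upstream of P1, 2 *ab* peaks and 1 *scrib-*+*ab* peak lay within 858 bp with none shared, and at 6418568 to 6420851 the group of 1 *ab* and 2 *scrib-*+*ab* peaks likewise had none shared.

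The longest *ab* peak of *hth* that met no *scrib-*+*ab* peak was 340 bp, at 6376800 to 6377139 between P4 and the 11th exon block. Its nearest *scrib-*+*ab* neighbour was 6580 bp away. The longest *scrib-*+*ab* peak that met no *ab* peak was 140 bp, at 6419838 to 6419977, with an *ab* peak of 140 bp 734 bp away. Of the 17 unshared *scrib-*+*ab* peaks of *hth*, 9 (52.9%) were under 40 bp, near the 46% of unshared *scrib-*+*ab* peaks over 3R. Of the 18 unshared *ab* peaks, 1 (5.56%) was under 40 bp, against 4.63% over 3R.

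Peaks of *hth* were longer in *ab* than in *scrib-*+*ab*, as they were over the arm. In *ab* their lengths ran from 39 to 565 bp with a median of 166.5 bp (quartiles 114.5 and 224 bp), against a median of 158 bp on 3R and 151 bp over the whole list. In *scrib-*+*ab* they ran from 22 to 317 bp with a median of 72 bp (quartiles 39 and 107.5 bp), against 64 and 69 bp. The medians at *hth* lay close to those of the arm, and the arm showed the same order of the lists. Over the 22 matched pairs the *ab* peak was the longer in 20, by a median factor of 1.88 (0.831 to 5.51), and in 15 pairs the *scrib-*+*ab* peak lay wholly within the *ab* peak. The midpoints of a pair were a median of 23.8 bp apart and at most 152.5 bp. A pair holds only the best match. Where an *ab* peak met more than 1 *scrib-*+*ab* peak, the factor is thus larger than over all the pieces. The pair at P2, 445 bp against 122 bp, is such a case and had the largest distance between midpoints.

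Shared peaks were the longer ones in each list. A longer peak meets a 1 bp overlap more readily, so part of this follows from the definition of sharing. In *ab* the median was 185 bp for the 22 shared and 141.5 bp for the 18 unshared *hth* peaks, and in *scrib-*+*ab* 94.5 bp for the 26 shared and 39 bp for the 17 unshared peaks. Over 3R the same medians were 203 and 106 bp in *ab* and 93 and 43 bp in *scrib-*+*ab*. Of the *hth* peaks, 13 of 43 in *scrib-*+*ab* (30.2%, against 28.1% over 3R) and 1 of 40 in *ab* (2.5%, against 2.09%) were under 40 bp, which is the length of read that PeakSeq was told to assume. Exactly 39 bp was the length of 5 *hth* peaks in *scrib-*+*ab* and 1 in *ab*.

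**Figure D3:**
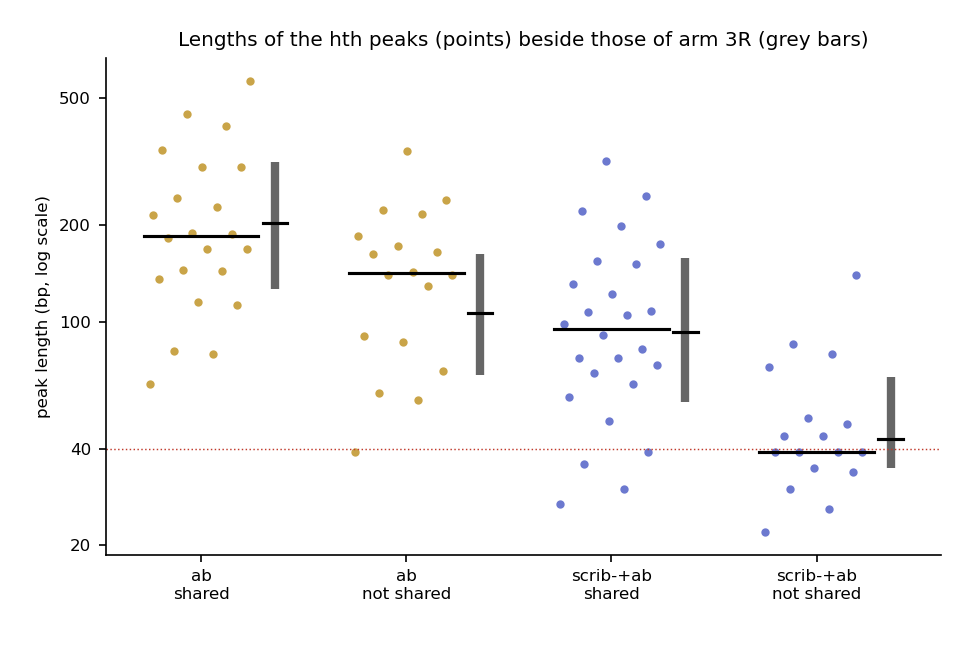
Lengths of the *hth* peaks in bp on a log scale, by list and by whether they overlap a peak of the other list (points, with a line at their median), beside the quartiles (grey bar) and median of arm 3R peaks of the same kind. The *ab* peaks are longer than the *scrib-*+*ab* peaks, shared peaks are longer than unshared ones, and 4 unshared *scrib-*+*ab* peaks sit at 39 bp, just under the dotted line at 40 bp.

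The deposited score is 1 for every peak, so it does not rank them. The lists are not ordered by position either, and a peak's place in its list went with its length (Spearman's rho −0.83 over the 40 *ab* and −0.94 over the 43 *scrib-*+*ab* peaks, a description without a test, since both belong to the same call). By that place, 2 of 40 *ab* peaks (5.0%) and 5 of 43 *scrib-*+*ab* peaks (11.6%) of *hth* were in the first 10% of the 3R peaks, where the arm itself has 9.99 and 9.98%.

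Read tracks were also drawn for *hth*, and their height is given here as a percent of the distance from the foot of a track to its mark at 100, a drawn scale with steps of 0.725. Between peaks the *ab* track had a median of 10.9 and a 95th percentile of 18.8, and the *scrib-*+*ab* track 10.1 and 15.9. The highest points between peaks were 30.4 in the *ab* track and 23.9 in the *scrib-*+*ab* track. At their own peaks the *ab* track reached 18.8 to 66.7 with a median of 29.7, and the *scrib-*+*ab* track 11.6 to 50.0 with a median of 23.2. Of the peaks, 39 of 40 in *ab* and 42 of 43 in *scrib-*+*ab* rose above the 95th percentile of their track between peaks. The tracks were used to call these peaks, so this is a check of the drawing against the lists and not independent evidence of binding. Height went with length (Spearman's rho 0.72 in *ab* and 0.70 in *scrib-*+*ab*, over peaks of one gene and one library).

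The highest points of both tracks lay in the group nearest the 3′ side, and not at a start site. The *ab* track reached 66.7 at its 182 bp peak at 6354864 to 6355045, where the *scrib-*+*ab* track reached 33.3. The *scrib-*+*ab* track reached 50.0 at the 303 bp *ab* peak at 6354205 to 6354507, where the *ab* track reached 52.2. The tracks thus stood far apart at the first of these peaks and close together at the second. At the 565 bp peak upstream of P2 the *ab* track reached 64.5 and the *scrib-*+*ab* track 29.7. At the peak over P2 they reached 44.9 and 31.9. The *ab* track was the higher at 33 of the 40 *ab* peaks and the lower at 5. At the 43 *scrib-*+*ab* peaks it was the higher at 26 and the lower at 15. The tracks were not scaled to each other here, so these heights compare drawings of 2 libraries.

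Sites called in one list alone were also looked up in the other track. At 13 of the 18 unshared *ab* peaks the highest pixel of the *scrib-*+*ab* track stood above its own 95th percentile between peaks. At 8 of the 17 unshared *scrib-*+*ab* peaks the *ab* track did so. By the median over a peak's pixels the numbers were 12 and 6. The counts of the lists cannot be set against each other. Unshared peaks had a median length of 141.5 bp in *ab* and 39 bp in *scrib-*+*ab*, and the tracks have different 95th percentiles. A maximum passes a percentile of single pixels more readily, and the rate for stretches without a peak was not worked out. Some of these sites lie less than 1 pixel from a peak of the other list and can take up its height. An example is the *ab* peak at 6405943 to 6406028, 48 bp from a *scrib-*+*ab* peak. The 340 bp *ab* peak at 6376800 to 6377139 had 38.4 in *ab* and 22.5 in *scrib-*+*ab*. In contrast, the 162 bp *ab* peak at 6358277 to 6358438 had 53.6 in *ab* and 15.2 in *scrib-*+*ab*, and the *ab* peak 1094 bp upstream of P4 had 25.4 and 9.42. Both lay below the 95th percentile of the *scrib-*+*ab* track between peaks. The 140 bp *scrib-*+*ab* peak at 6419838 to 6419977 had 14.5 in *ab* and 29.0 in *scrib-*+*ab*. At the 340 bp *ab* peak, 6580 bp from the nearest *scrib-*+*ab* peak, the *scrib-*+*ab* track thus stood above its 95th percentile between peaks. Its 22.5 there stayed below the 23.9 that the same track reached between peaks. Whether that height marks binding was not tested.

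**Figure D4:**
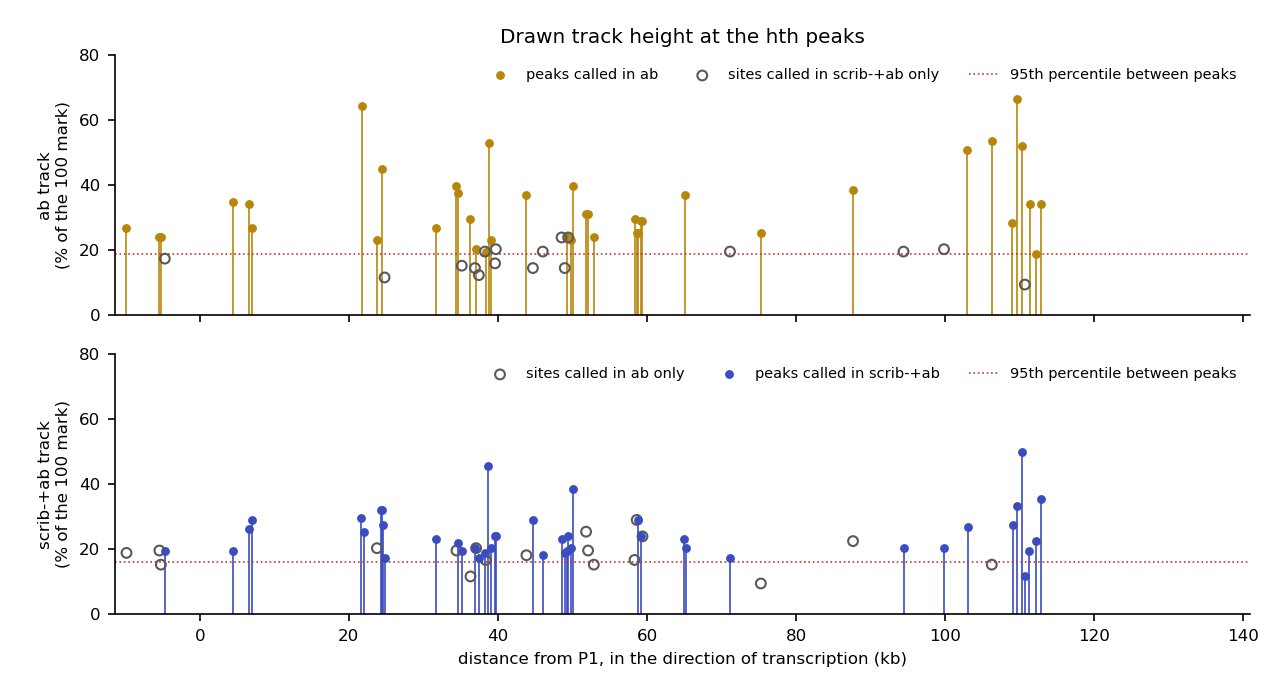
Height of the drawn read tracks at the *hth* peaks, as a percent of the distance to the track's 100 mark, against distance from P1 in kb (top, *ab* track; bottom, *scrib-*+*ab* track). Filled points are peaks called in that library, open points are sites called only in the other, and the dotted lines are the 95th percentile between peaks, 18.8 and 15.9.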

How the data were processed

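For ChIP-Seq the authors used discs of each genotype from larvae on the fifth day after egg laying. They aligned reads with Bowtie to dm3, and enriched regions were called against input by PeakSeq, with a read length and a largest gap of 40 bp. The input libraries were not analysed here. The authors deposited the peaks as arm, start and end with a constant score of 1. These lists hold no depth per peak, and the read profiles were not analysed here, so length in bp and place in the list were used instead. Starts were converted to count from 1. The window, the transcripts and the track heights were read from the study's drawn panel, at 127 bp per pixel from 3 ruler marks, with a largest residual of 42.2 bp. The panel's peak bars met every listed peak.

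A peak belonged to *hth* if it touched the window, to a promoter region if it touched the 500 bp upstream of a start site, and to an intron if it touched an intron of any drawn transcript. The members, the window and the stretches compared were chosen with earlier results of these data known. The most alike genes were, by rule, up to 3 of the other genes with panels of at least 50 kb, by distance in log2 peaks per kb. Density intervals are exact Poisson and shares exact binomial (Clopper-Pearson), at 95%, for counting error only. Overlap counting and joining were tested on simulated data. Alternatives changed the window, the joining of peaks, the overlap, the lengths kept, the promoter region and the grouping distance. The first 50% of each list was added after seeing the data. Computations ran in Python 3.11.15 with SciPy 1.17.1 and NumPy 2.4.6. Panels were read with Pillow 12.0.0, and plots drawn with Matplotlib 3.10.9.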

Additional observations from a re-analysis of the deposited data

How the results depend on the processing

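The ratio of *hth* to its arm stayed within its counting interval under all 7 alternatives in each list, from 3.42 to 3.98 in *ab* and from 2.49 to 3.31 in *scrib-*+*ab*. Of 52 alternative values over 15 results, 38 stayed within the tolerance, which was 1.5 times for a count and the 95% counting interval for other values, and 14 did not. The tolerance is wide: within it, keeping peaks of at least 40 bp took the *scrib-*+*ab* peaks to 30 and their shared percentage to 73.3, and a grouping distance of 1 kb gave 23 groups. The number of peaks fell from 40 to 25 in *ab* and from 43 to 22 in *scrib-*+*ab* when peaks within 500 bp were joined, to 22 in each with the longer 50% of each whole list, and to 21 and 24 with the first 50% of each list on the arm, an alternative chosen after seeing the data. Joining raised the median length to 304 bp in *ab* and 124 bp in *scrib-*+*ab*. The shared percentage was 25 in *ab* and 23.3 in *scrib-*+*ab* with a reciprocal overlap of 50%, and 75 and 83.7 with a gap of up to 500 bp allowed. With a promoter region of 1 kb, 2 *ab* peaks were counted, and with a grouping distance of 5 kb, 10 groups.

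No paired analysis was possible because each genotype had 1 pull-down library. With 1 library per genotype, leaving out a library leaves no value. The spread between pools or animals is not known, and the gene models and heights are limited by the drawing.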
